A study of Mus musculus with 8 samples.

Results

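Some m6A peaks of mouse vascular smooth muscle cells (VSMCs) lay outside every annotated gene. A peak was counted as intergenic when its summit, the position of the highest signal, fell in no gene body of the GENCODE M21 annotation of the mouse genome (build GRCm38, also called mm10). Of 42744 summits in 4 peak lists, 1905 met this rule. Their intervals were merged over the lists wherever they shared at least 1 base, which gave 950 intergenic regions among 11361 m6A regions in all. Each region was placed by the distance from its strongest summit to the nearest gene end. By this measure 265 regions lay within 5 kb downstream of a gene's 3′ end, 214 lay within 5 kb upstream of a gene's 5′ end, and 471 lay farther than 5 kb from any gene.

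The lists came from primary VSMCs grown out of the descending aorta of adult C57BL/6J mice and transduced with lentivirus. The control arm (shCTR) carried a nontargeting short hairpin RNA against a plant microRNA, and the other arm (shMettl14) carried a hairpin against Mettl14. Both arms therefore held a lentiviral vector, and a hairpin lowers but does not remove its target. Fragmented total RNA was enriched with an anti-m6A antibody and sequenced beside the fragments before pulldown, in replicates A and B of each arm, which gave 4 IP and 4 input samples and 1 peak list for each IP sample. Nothing states how the cultures of A and B relate, so SDs and p-values measure only the spread between these samples.

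METTL14 and METTL3 form the core of the complex that places m6A on adenosines, mostly within the short motif DRACH (D stands for any base but C, R for a purine and H for any base but G), of which GGACT is a common form. On mRNA the mark is concentrated around stop codons and along 3′ UTRs. The end of a transcript is set by cleavage and polyadenylation, and many genes use several such sites, so RNA can continue past the 3′ end that an annotation gives. Primary transcripts of repeats, unannotated noncoding RNAs and pseudogenes are other sources of RNA outside annotated genes.

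The sequences of some regions are shown first. The lists carry no strand, and behind 3′ ends the strand printed is that of the gene by choice. For each region of the first and second sets below, 29 bases of the GRCm38.p6 RefSeq genome are printed 5′ to 3′. Capitals show the GGACT match closest to the strongest summit, or the closest DRACH match where GGACT was absent. The match was taken on the strand of the neighbouring gene for regions downstream of a 3′ end and otherwise on either strand. The first set shows runs from regions of like sequence behind the 3′ ends of related genes on chromosome 2, 6 of them protein coding and 1 an unprocessed pseudogene (Gm14421). The 4 different runs are not aligned, so the capitals do not all mark the same site of the like sequence. The set was read at chr2:175482514-175482542 (plus strand) for Zfp965, chr2:177052970-177052998 (minus) for Gm14421, chr2:175691262-175691290 (minus) for Zfp969, chr2:175918664-175918692 (minus) for Zfp966, chr2:175788834-175788862 (minus) for Gm14288, chr2:176435831-176435859 (plus) for Gm14435 and chr2:178035432-178035460 (plus) for Zfp971.
Zfp965: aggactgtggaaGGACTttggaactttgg
Gm14421: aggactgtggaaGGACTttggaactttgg
Zfp969: catgttttgggaGGACTgtggaaggattt
Zfp966: catgttttgggaGGACTgtggaaggattt
Gm14288: catgttttgggaGGACTgtggaaggacct
Gm14435: catgttttgggaGGACTgtggaaggacct
Zfp971: ggaaggactttgGGACTttgggccaaagg

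The second set shows regions that had no like region among the 950, namely 4 of the 12 strongest and that of Pabpn1, a gene named below. It was read at chr11:59199765-59199793 (minus) for 2610507I01Rik, chr2:131545515-131545543 (minus) for Adra1d, chr14:54898289-54898317 (plus) for Pabpn1, chr17:34998456-34998484 (minus) for the region upstream of Vars and chr15:89766020-89766048 (plus) for the distant region whose nearest gene was Syt10.
2610507I01Rik: caagttgtgcctGGACTatcatgcccaaa
Adra1d: cctactgccataGGACCtgccatacagca
Pabpn1: gggattcgccatGGACAcatctcaactgt
Vars: tactgacaacaaGGACTgtcgttggcagt
Syt10: aatctggacgtcTAACTgtagagattgcc

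The third set shows tracts of one base class that held a summit in all 4 lists, chosen as the 3 with the highest pileup among 6 such regions. For each, 30 bases of the same genome around the strongest summit are printed on the plus strand, with no capitals because no motif is marked. The set was read at chr4:149976258-149976287 for H6pd, chr7:27899476-27899505 for Zfp974 and chr4:88965026-88965055 for AL805899.1.
H6pd: tctcttctcctctcctcttctctcttctcc
Zfp974: aagaaggaaggaaggaagaagaggaggaga
AL805899.1: aaagaaagaaagaaagaaagagagacagag

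The 4 lists differed in size, from 8655 summits in shCTR B to 13675 in shMettl14 A, and what the files show of depth is the IP pileup. This is how many fragments overlap a summit, was recovered from the deposited values and had a median of 13 to 16 over all summits of a list. It is not scaled for depth, and over the 4929 regions found in all 4 lists it summed to 265042 in shCTR and 215995 in shMettl14. No list had a summit in an exon of Mettl14, so the knockdown could not be checked here. Of 8 smooth muscle markers, 3 (Myh11, Lmod1 and Cald1) had a summit in an exon in at least 1 list, while Acta2, Tagln, Cnn1, Smtn and Myocd had none. Of 6 endothelial markers, 4 (Pecam1, Cdh5, Kdr and Erg) had one, as did 1 of 5 fibroblast markers (Pdgfra) and none of 6 leukocyte markers. Over all coding genes the share with such a summit was 5558 of 21938 (25.3%). A peak needs RNA, and in bulk samples fewer cells of a type and less RNA per cell cannot be told apart. Whether RNA of other cell types lies behind any intergenic region was not tested.

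Intergenic summits were a small and similar part of each list. The shCTR lists held 532 (A) and 363 (B), and the shMettl14 lists 624 (A) and 386 (B). As a share of the list these were 4.77% and 4.19% in shCTR and 4.56% and 4.17% in shMettl14, and the higher share belonged to replicate A in both arms. Control lists averaged 4.48% ± 0.406 (SD, n = 2) and knockdown lists 4.37% ± 0.278 (SD, n = 2), a difference of -0.114 percentage points that was smaller than the spread between replicates (exact permutation test, two-sided p = 0.667, where 2 against 2 lists cannot go below p = 0.33). Among the intergenic summits of a list, those within 5 kb of a 3′ end made up 31.8% and 29.2% in shCTR A and B and 30.4% and 29.3% in shMettl14 A and B. All further runs of 4 values keep this order of lists. The means were 30.5% ± 1.81 (SD, n = 2) and 29.9% ± 0.830 (SD, n = 2), and this difference too was within the spread (exact permutation test, two-sided p = 1.0). Both differences changed sign when shCTR A was left out, to 0.173 and 0.661 percentage points, and the first also without shMettl14 B, to 0.0821.

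Relative to the sequence available, intergenic m6A regions were concentrated at gene ends. The 5 kb behind 3′ ends covered 145 Mb, or 10.1% of sequenced intergenic bases, and held 27.9% of the regions, a density of 1.83 regions per Mb. The 5 kb ahead of 5′ ends covered 140 Mb and held 22.5% of the regions, or 1.53 per Mb. The remaining 1144 Mb held 49.6% of the regions at 0.412 per Mb. For regions found in all 4 lists the contrast was wider, with 0.470 per Mb near 3′ ends, 0.293 near 5′ ends and 0.0367 elsewhere. These densities count all sequenced bases, while the authors kept uniquely mapped reads only, and how much of each class such reads can cover was not tested.

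The first bases behind a gene were the densest. Within 100 nt of a 3′ end lay 34 regions, at 8.99 per Mb, of which 16 were in all 4 lists. Density then fell with distance, to 4.12 per Mb up to 500 nt (60 regions), 1.80 up to 1000 nt (31 regions), 1.47 up to 2000 nt (46 regions), 1.21 up to 5000 nt (94 regions) and 0.800 up to 10000 nt (76 regions). Ahead of 5′ ends the densest bin was 100 to 500 nt, with 71 regions and 5.21 per Mb, and the density fell to 0.511 per Mb between 2000 and 5000 nt (39 regions). The median distance was 1152 nt for the 3′ end regions and 722 nt for the 5′ end regions. For the far regions it was 17214 nt, with a maximum of 408447 nt, and their nearest gene end was a 3′ end in 264 and a 5′ end in 207.

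**Figure D1:**
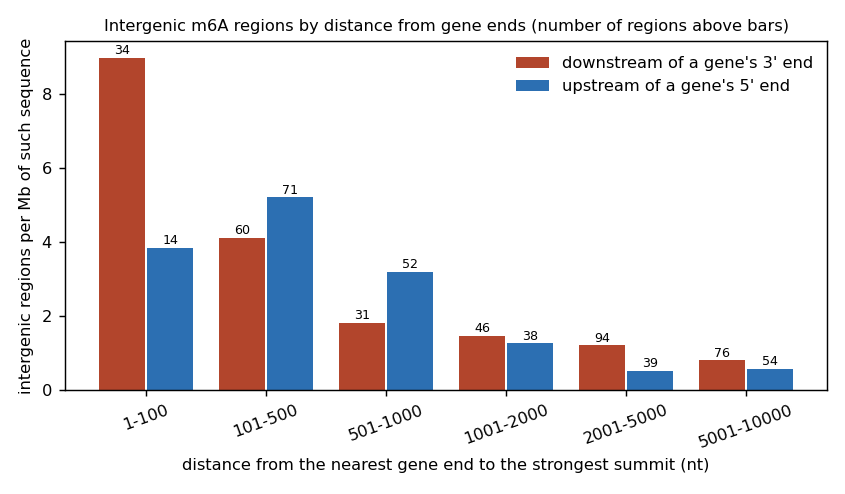
Intergenic m6A regions per Mb of intergenic sequence (bar height) by distance in nt from the nearest gene end to the strongest summit, with the number of regions above each bar. Regions downstream of 3′ ends were densest in the first 100 nt (8.99 per Mb), and those upstream of 5′ ends between 100 and 500 nt (5.21 per Mb).

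The strand of GGACT followed the strand of the gene that ended just before the region. Within 50 nt of the strongest summit, the 265 regions behind 3′ ends held 95 GGACT matches on either strand, and 83 of them, or 87.4% (exact binomial 95% interval 79.0 to 93.3%), were on the strand of that gene. The same count at summits in exons of single coding genes, where the strand of the transcript is known, gave 2105 on that strand and 624 on the other, or 77.1% (75.5 to 78.7%). By list the share behind 3′ ends was 88.0%, 95.7%, 79.2% and 90%, a mean of 88.2% ± 6.85 (SD, n = 4), with the lowest value in shMettl14 A. Coding exons gave 74.2%, 75.7%, 71.7% and 75.4%, so the 3′ end share was the higher one within each list. Intervals cover counting error only, and matches in regions of like sequence are not independent. With each group of like regions reduced to 1 region the share was 83.9%, and its interval of 72.3 to 92.0% then held the exon value.

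Ahead of genes the motif pointed the other way more often than not. The 214 regions near 5′ ends had 25 matches on the strand of the gene and 43 on the opposite strand, a share of 36.8% (25.4 to 49.3%), and the lists gave 35.6%, 40.5%, 41.4% and 25%. None of the 4 lists reached an even split. The excess of the opposite strand lay mainly between 100 and 1000 nt. Counts on the gene's strand and on the other were 2 and 1 within 100 nt, 6 and 16 up to 500 nt and 4 and 11 up to 1000 nt. Farther out they were 6 and 8 up to 2000 nt, 7 and 7 up to 5000 nt and 9 and 3 up to 10000 nt. Of these regions, 27 lay between the starts of 2 genes within 5 kb on both sides, and 23 had the 3′ end of another gene within 5 kb. Far regions were near an even split, with 38 of 79 matches on the strand of the nearest gene, 48.1% (36.7 to 59.6%), and lists from 37.5% to 57.1%.

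The excess of the gene's own strand held along the whole 5 kb behind 3′ ends. The counts on the gene's strand and on the other strand were 5 and 2 within 100 nt, 22 and 3 up to 500 nt, 12 and 2 up to 1000 nt, 22 and 2 up to 2000 nt, and 22 and 3 up to 5000 nt. In the next bin, up to 10000 nt, they were 5 and 12. Regions beside coding genes gave 56 of 63 (88.9%), and regions beside other genes, mostly lincRNAs and pseudogenes, 27 of 32 (84.4%). A group of like regions on chromosome 2, at 121 to 1453 nt, supplied 24 of the matches on the gene's strand and 0 on the other. Further regions behind related genes there lay outside that group, such as those of Gm14288 at 3489 nt and Gm14435 at 3063 nt. Each of these held 1 GGACT, on the gene's strand. The bins were not recounted without these genes. GGACT on either strand was present within 50 nt of the strongest summit in 29.8% of the 3′ end regions, 28.0% of the 5′ end regions and 15.1% of the far regions, beside 26.9% of all 11361 m6A regions. The wider motif DRACH was on either strand of 94.7%, 91.6% and 85.8% of the same windows in these classes and of 96.7% of all m6A regions. DRACH is found in nearly any such window, and its share on the gene's strand was 66.6% behind 3′ ends and 66.7% in coding exons.

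**Figure D2:**
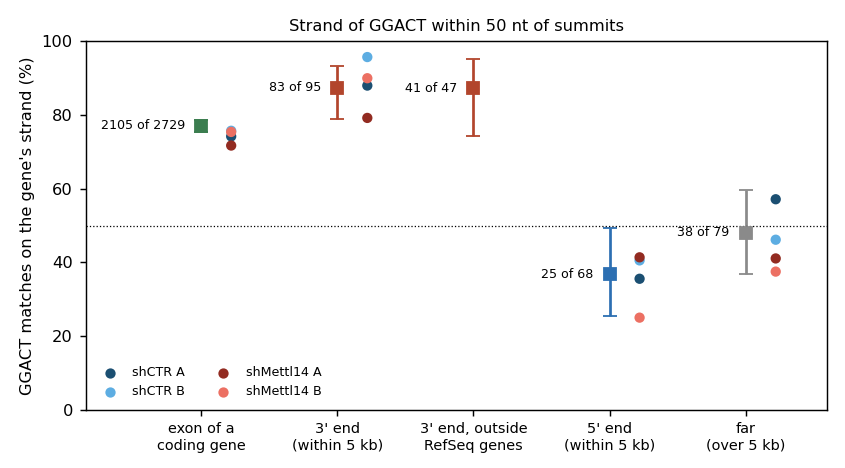
Share of GGACT matches (%) within 50 nt of summits that lie on the strand of the gene, for coding exons and for each class of intergenic region. Squares are merged regions with exact binomial 95% intervals and the counts beside them, circles are the summits of each list, and the dotted line marks 50%. All 4 lists lie above the line behind 3′ ends and below it ahead of 5′ ends.

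A second annotation placed many of the 3′ end regions inside genes. Of the 265, 121 (45.7%) lay inside a gene of the RefSeq annotation of the same build and 93 (35.1%) inside an exon of one. In 84 of these 93 the exon was on the strand of the GENCODE neighbour, in 68 it belonged to a gene of the same symbol, and in 3 the summit was in coding sequence. The exons came from curated transcripts in 34 regions, from predicted transcripts in 43 and from other transcripts in 16. The other 144 regions lay outside RefSeq genes too, and among them 41 of 47 GGACT matches, 87.2% (74.3 to 95.2%), were on the strand of the upstream gene. For the 5′ end regions, 85 (39.7%) were inside a RefSeq gene and 129 outside, and in 46 the RefSeq exon was on the strand of the neighbour. Only 74 of the 471 far regions (15.7%) were inside a RefSeq gene.

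The poly(A) signals AATAAA and ATTAAA were counted within 500 nt on each side of a summit. Behind 3′ ends they were present on the gene's strand at 62.3% ± 3.23 (SD, n = 4 lists) of summits and on the other strand at 51.9% ± 4.68. Near 5′ ends the shares were 43.5% ± 2.26 and 48.4% ± 3.34. The share on the gene's strand was higher than that on the other strand in all 4 lists behind 3′ ends and lower in all 4 ahead of 5′ ends. Far summits also had more on the strand of the nearest gene in all 4 lists, 56.7% ± 1.2 against 52.3% ± 0.538, so the excess was not particular to 3′ ends.

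The neighbours of the 3′ end regions were 150 times a protein coding gene (56.6%) and 115 times another kind, led by 45 processed pseudogenes and 32 lincRNAs. Of the 117 coding neighbours, 49 (41.9%) also had a summit in one of their own exons in some list, and of the 142 coding neighbours of the 5′ end regions 77 (54.2%) had one, beside 5558 of all 21938 coding genes (25.3%). The merged interval itself reached back into the gene body in 46 of the 265 3′ end regions and in 24 of the 214 5′ end regions.

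Intergenic regions were found in fewer lists than other m6A regions. Of the 950, 533 were in 1 list, 175 in 2, 91 in 3 and 151 in all 4. The share in all 4 lists was 15.9%, beside 43.4% of all 11361 regions. It was 25.7% near 3′ ends (68 regions), 19.2% near 5′ ends (41 regions) and 8.92% far from genes (42 regions), so no class reached the share of all regions. The regions of a single list came from shCTR in 176 (A) and 78 (B) cases and from shMettl14 in 198 (A) and 81 (B), with more in the replicate A lists, which hold more summits. Their median pileup was 5 fragments in every list. The regions in all 4 lists had medians of 14, 11, 13 and 10 fragments. The median region was 177.5 nt long, beside 297 nt for all regions.

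**Figure D3:**
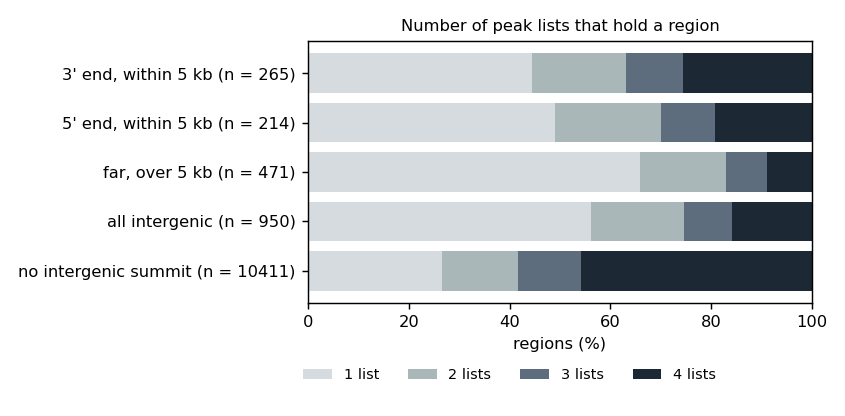
Share of regions (%, horizontal axis) found in 1, 2, 3 or 4 peak lists, for each class of intergenic region and for the 10411 regions with no intergenic summit. The darkest segment, regions in all 4 lists, spans 25.7% near 3′ ends, 8.92% far from genes and 45.9% of regions with no intergenic summit.

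Over all summits the far class had the lowest signal, while 3′ and 5′ end regions lay within their spread of each other. Among regions in all 4 lists the far class was no lower than the 5′ end class, with median pileups of 13.5, 11, 12.5 and 10.5 far from genes, 13, 11, 12 and 10 near 5′ ends and 15.5, 12, 14.5 and 11.5 near 3′ ends. The median pileup at a summit, averaged over lists, was 8.25 ± 0.5 (SD, n = 4) near 3′ ends, 7.75 ± 0.5 near 5′ ends and 6.5 ± 0.577 far from genes, beside 8.0 in introns and 16.2 ± 2.06 in coding exons. Some summits had the lowest background of their list, the level used where input reads are few. They made up 38.3% ± 6.07 of the far class, 15.8% ± 4.76 near 3′ ends and 14.4% ± 4.18 near 5′ ends, beside 12.9% in introns and 1.54% in coding exons. Repeats are soft-masked in the reference, and the share of regions with at least 50% of the window around the strongest summit masked was 52.8% near 3′ ends, 28.5% near 5′ ends and 85.1% far from genes. It was 63.3% in introns and 3.55% in coding exons. Median GC content was 46.8% near 3′ ends, 50.5% near 5′ ends and 44.1% far from genes.

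**Figure D4:**
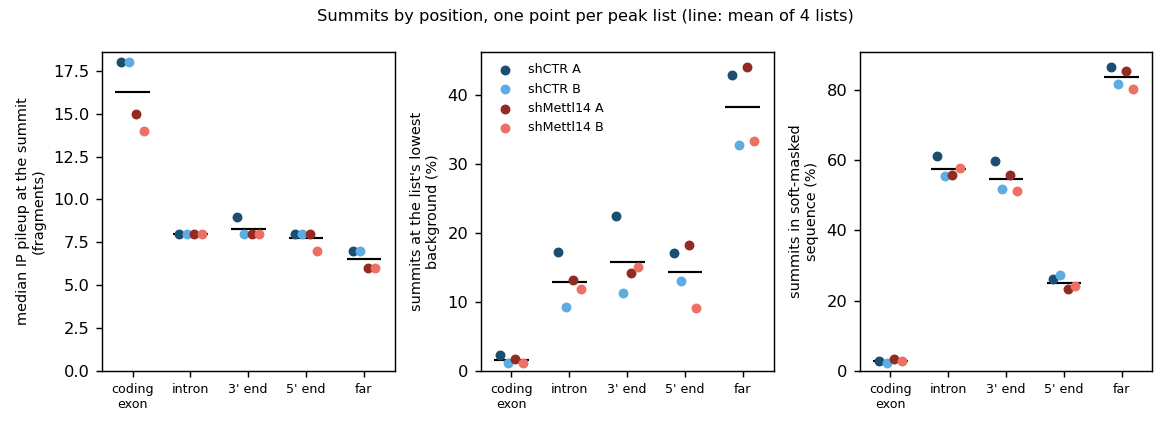
Median IP pileup in fragments (left), share of summits at the list's lowest background in % (middle) and share of summits in soft-masked sequence in % (right), by position of the summit, with 1 point per list and a line at the mean of the 4 lists. Far summits had the lowest mean pileup (6.5 fragments) and the largest share at the lowest background (38.3%).

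The region with the highest mean rank of fold enrichment lay 23 nt behind 2610507I01Rik, a noncoding transcript, at chr11:59199739-59200207. Its pileup was 38 and 50 fragments in the shCTR lists and 37 and 41 in the shMettl14 lists, and its fold enrichment had a percentile of at least 99.6 in each list. The shCTR B value was the highest and the other 3 lay close together, so the arms overlapped. The summit was inside a RefSeq exon of 2610507I01Rik on the same strand, and its only GGACT is the one printed above, on the strand of the transcript.

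Adra1d, the alpha-1D adrenergic receptor through which noradrenaline contracts the aorta, had a region 347 nt past its GENCODE end at chr2:131545312-131546393. Its pileup was 69, 23, 53 and 31 fragments, high in both replicate A lists and low in both replicate B lists. The interval was 1082 nt long, reached back into the gene and lay in an exon of a curated RefSeq transcript of Adra1d, in sequence with no masked base in the window. The printed match is GGACC, one of the DRACH forms, and no GGACT was within 50 nt of the summit.

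Gm17501, a lincRNA, had a region 42 nt behind its end at chr3:145677363-145677735 with 49, 41, 37 and 29 fragments. Both shCTR values were above both shMettl14 values, but the rank of its fold enrichment within the list differed by 0.08 ± 0.493 normal score units (SE, limma adjusted p = 0.999). Gm9791, a processed pseudogene, had 28, 22, 28 and 21 fragments at a region 49 nt behind its end, with the higher values in the replicate A lists. Both summits were inside RefSeq exons of the same symbol and strand.

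Several regions outside these top ranks sat at the very end of coding genes, and they were chosen here after their values were seen. Nrp1, a co-receptor for VEGF and semaphorins, had its strongest summit 2 nt past the annotated end, with 86, 91, 79 and 76 fragments. Rbms2, an RNA binding protein, had one 7 nt past its end with 39, 39, 36 and 21 fragments. Zfp146, a zinc finger protein, had one 217 nt past its end with 29, 30, 21 and 24 fragments. All 3 summits lay in RefSeq exons of the same gene, and for each the pileups of both shCTR lists were above those of both shMettl14 lists. This order held for 23 of the 151 intergenic regions in all 4 lists (15.2%), beside 37.0% of all 4929, and the reverse for 7 (4.64%), beside 2.45% of all. The rank scores of these 3 differed by 0.36 ± 0.499, -0.04 ± 0.514 and 0.00 ± 0.504 (SE, limma adjusted p = 0.999 for each).

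**Figure D5:**
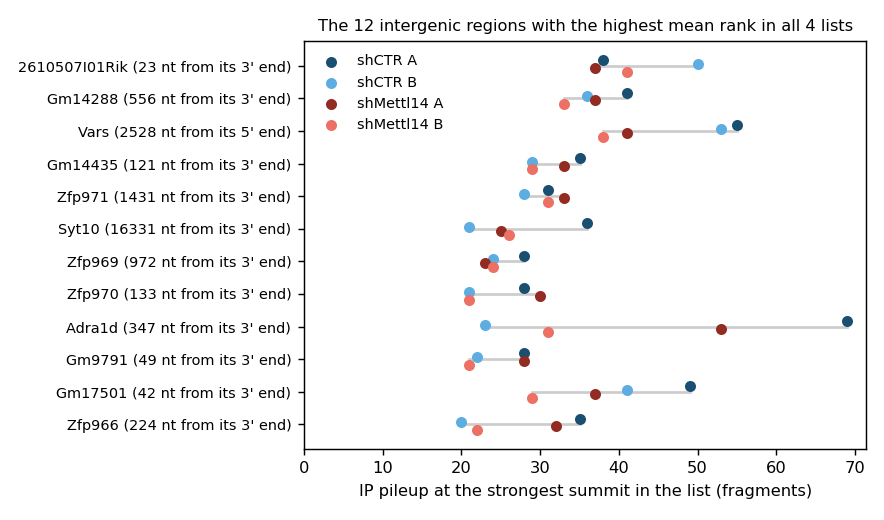
IP pileup in fragments (horizontal axis) in each of the 4 lists for the 12 intergenic regions with the highest mean rank of fold enrichment, labelled by the nearest gene and the distance to its end, with a grey line from the lowest to the highest list. Adra1d spans 23 to 69 fragments, with both replicate A lists above both replicate B lists.

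Zinc finger genes and genes with Gm symbols on chromosome 2 carried a cluster of strong 3′ end regions. Zinc finger proteins of this kind bind DNA and are encoded in tandem arrays of closely related genes. A group of 17 regions shared sequence (at least 85% identity over at least 80 nt), 16 of them on chromosome 2 between 175090096 and 181862775. Of the 17, 15 lay behind a 3′ end at distances of 121 to 1453 nt, and 9 were in all 4 lists. Zfp and Gm symbols of this array supplied 6 of the 12 strongest intergenic regions in all 4 lists, and 5 of those 6 belonged to the group.

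Gm14288 led the group, with 41, 36, 37 and 33 fragments at chr2:175788656-175788988, 556 nt behind the gene. Gm14435 had 35, 29, 33 and 29 fragments at 121 nt, Zfp971 31, 28, 33 and 31 at 1431 nt, and Zfp969 28, 24, 23 and 24 at 972 nt. These 4 had values within a narrow range over the lists, and the arms overlapped or met for each. Zfp966 had 35, 20, 32 and 22 fragments at 224 nt, and Zfp970, which is not in the sequence group, 28, 21, 30 and 21 at 133 nt. In both of these the replicate A lists were above the replicate B lists.

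All 24 GGACT matches near the group's 3′ end summits were on the strand of the gene. The run printed above for Zfp965 and Gm14421 was in the windows of 8 of the group's 17 regions and of 13 of all 11361 m6A regions. It had 1274 exact copies in the genome, 124 of them on chromosome 2. How reads from such stretches were placed was not tested. The run printed for Zfp969 and Zfp966 had 5 copies in the genome, that for Gm14288 and Gm14435 had 3, and that for Zfp971 had 1. These runs were wholly inside the windows of 3, 0 and 1 of the group's 17 regions, where a run reaching past a window's edge is not counted. Without the group, 59 of 71 GGACT matches behind 3′ ends were on the gene's strand, 83.1% (72.3 to 91.0%). Other regions behind genes of this array, outside the group, remained in that count.

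Some of these genes had a string of regions behind them. Gm14288 had 6 within 10 kb downstream, from 556 to 7074 nt, 3 of them in all 4 lists, and Gm14435 had 5, from 121 to 3063 nt. Zfp969 and Zfp971 had 4 each, with 2 in all 4 lists in both cases. The second strong region behind Zfp971, 3913 nt from the gene, had 33, 19, 42 and 20 fragments, with both replicate A lists above both replicate B lists. Over the data as a whole 341 regions lay within 10 kb behind 272 genes, and 232 of these genes had 1 region, 22 had 2 and 18 had 3 or more.

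Car5b on chromosome X, which encodes a mitochondrial carbonic anhydrase, was the one gene with 4 regions of which all 4 were in all lists. They lay 1645 to 4232 nt behind the gene. The nearest had 24, 25, 21 and 19 fragments, and the next at 2364 nt had 9, 8, 9 and 10. The region at 2985 nt had 17, 15, 14 and 13 fragments, and the one at 4232 nt had 12, 11, 20 and 11. All 4 summits lay in an exon of the predicted RefSeq gene Gm38561, which is on the strand opposite to Car5b, and the 3 GGACT matches near them were on that opposite strand. Here the nearest 3′ end and the strand of the motif pointed to different genes. Gm28187 and Gm26753 also had 4 regions each within 10 kb behind them, of which 0 and 1 were in all 4 lists, with pileups of 4 to 20 fragments.

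Upstream of genes the region with the highest mean rank of fold enrichment was the one 2528 nt ahead of Vars, which encodes valyl-tRNA synthetase. It spanned chr17:34997242-34999483, held 21 summits over the lists and had 55, 53, 41 and 38 fragments at the strongest. Both shCTR values were above both shMettl14 values, while its fold enrichment had a percentile of at least 98.6 in each list, and the rank score differed by 0.31 ± 0.493 (SE, limma adjusted p = 0.999). The summit was in an exon of a curated RefSeq transcript of D17H6S56E-5 on the strand opposite to Vars, and the printed GGACT was on the strand of that transcript.

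Other 5′ end regions of signalling and regulatory genes were chosen here after their values were seen. Spry2, a feedback inhibitor of receptor tyrosine kinase signalling, had a region 170 nt ahead of its start with 61, 51, 50 and 37 fragments. Maml2, a coactivator of Notch signalling, had 27, 33, 21 and 23 at 813 nt, and Cpeb4, a regulator of poly(A) tails and translation, 35, 29, 25 and 23 at 913 nt. Rras2, a RAS family GTPase, had 24, 22, 17 and 12 at 307 nt. These 4 had the order described for Nrp1, with both shCTR pileups the higher, in values not scaled for depth. That order held for 15.2% of the 151 intergenic regions in all 4 lists and 37.0% of all regions in all 4 lists. The genes named here are thus not typical of intergenic regions. Maml2 and Cpeb4 summits lay in RefSeq exons of the same gene, and those of Spry2 and Rras2 lay outside RefSeq exons. Their rank scores differed by -0.37 ± 0.493, -0.60 ± 0.526, -0.14 ± 0.513 and -0.57 ± 0.504 (SE, limma adjusted p = 0.999 for each), all within the noise.

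Far from genes the region with the highest mean rank was the one nearest to Syt10, a calcium sensor of the synaptotagmin family, at chr15:89765925-89766244 and 16331 nt behind the gene. Its pileup was 36, 21, 25 and 26 fragments, highest in shCTR A, and its window held no masked base and lay outside RefSeq genes. The printed run around its motif had 5 copies in the genome. The regions farthest from any gene among those in all 4 lists lay 163223 nt from Gm19102 (11, 8, 12 and 8 fragments), 78188 and 77614 nt from Stxbp6 (7, 4, 8 and 7, and 8, 7, 13 and 6), 72752 nt from Gm23460 (13, 13, 12 and 6), 62182 nt from Gm28158 (6, 9, 6 and 7) and 62160 nt from Gm28077 (6, 5, 7 and 11). All 6 windows were wholly soft-masked, and none of them held GGACT.

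Like sequence was common away from genes. Of the 950 regions, 440 (46.3%) resembled at least 1 other region (the same identity and length as above), in 57 groups. The share was 65.4% far from genes, 35.5% near 3′ ends and 17.8% near 5′ ends. The largest group had 65 regions on 21 chromosomes, 1 of them in all 4 lists, and the next had 56 regions on 16 chromosomes, 2 of them in all 4 lists.

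Tracts of nearly pure purine or pyrimidine were common and mostly lacked the motif. In 97 of the 950 regions (10.2%) at least 90% of the window was of a single base class, and 84 of these had no DRACH on either strand, out of 99 intergenic regions without DRACH. A DRACH match needs bases of both classes, so this choice of windows itself leaves little room for one. The tracts were far from genes in 67 regions, near 3′ ends in 16 and near 5′ ends in 14, and they were on 21 chromosomes. The same kind of window made up 11.3% of intronic regions, 0.0975% of coding exon regions and 2.35% of all regions. Only 6 of the 97 were in all 4 lists and 63 were in 1 list. Tract summits numbered 69 and 25 in shCTR A and B and 41 and 31 in shMettl14 A and B, with the most in shCTR A.

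Of the 6 tract regions in all 4 lists, the 3 with the highest pileup are those printed above. That of AL805899.1, a lincRNA 26520 nt away, had 59, 44, 27 and 36 fragments, with both shCTR lists higher. That of H6pd, 3202 nt behind this gene for an enzyme of the endoplasmic reticulum that supplies NADPH, had 55, 38, 38 and 38. The Zfp974 tract, 7901 nt away, had 21, 10, 11 and 9. The windows of H6pd and Zfp974 held no DRACH on either strand, and that of AL805899.1 held 1.

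Few intergenic regions were found in 1 arm only. In both shCTR lists and neither shMettl14 list were 18 of the 950 regions (1.89%), beside 1.71% of all 11361. In both shMettl14 lists and neither shCTR list were 27 (2.84%), beside 1.79% of all. The 18 were 8 near 3′ ends, 3 near 5′ ends and 7 far, and the 27 were 2 near 3′ ends, 11 near 5′ ends and 14 far. No test was made of these counts. With equal numbers of top summits from each list the counts were 19 and 11. Without 1 list they ran from 27 to 195 and from 41 to 225, since a single list then stood for an arm.

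Regions of a single arm were weak. Those ranked highest in shCTR were behind Gm6788 (10 fragments in replicate A and 9 in B) and behind Ltb4r1, a receptor for leukotriene B4 (9 and 10). The others named by rank were near AC162373.1 (7 and 8), Gm42636 (11 and 6), Spink2 (6 and 7) and Gm1818 (9 and 6), and the AC162373.1 and Spink2 windows were pure purine or pyrimidine. In shMettl14 high-ranking regions lay 515 nt ahead of Akirin2, a nuclear protein (15 fragments in replicate A and 13 in B), and 420 nt ahead of Prdm6, a transcriptional repressor of smooth muscle (11 and 5). Those near Gm7953 (6 and 7) and Tmem168 (10 and 4) followed and were wholly soft-masked. Other genes with a shMettl14 region ahead of their start were Cdk17 (52 nt), Otud1 (188 nt), Baz1b (203 nt), Itpr2 (340 nt) and Dicer1 (536 nt), named after their values were seen. Their pileups were from 3 to 8 fragments. No further genes were picked in this way for shCTR. For Cdk17, another region 269 nt ahead of its start had a peak in shCTR A only, with 5 fragments.

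No intergenic region passed the test for a changed rank between the arms. The highest fold enrichment of each region in all 4 lists was ranked within its list, turned into a normal score and compared with limma over all 4929 such regions. None passed an adjusted p of 0.05 (0.0% of all regions), and none of the 151 intergenic ones did, with a smallest adjusted p of 0.903. At an unadjusted p under 0.05 were 9 intergenic regions (5.96%), 6 higher and 3 lower in shMettl14, beside 4.93% of all regions. Fisher's exact test on recovered pileups summed over replicates, which covers counting error only, called 0 regions, with 7 intergenic and 126 of all regions at an unadjusted p under 0.05. The median difference of the rank score, shMettl14 minus shCTR, was 0.09 over the intergenic regions and 0.00 over all regions, with a median SE of 0.52 for a single intergenic region. A decrease common to every region would not alter the ranks.

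The regions with the smallest p were within this noise, and their values are given for that reason. The region 3054 nt behind Fam114a1 had 7 and 9 fragments in shCTR and 14 and 12 in shMettl14, a rank score difference of 1.42 ± 0.498 (SE, limma adjusted p = 0.903). That behind the pseudogene Gm36298 had 9 and 15 against 20 and 19, a difference of 1.34 ± 0.505 (limma adjusted p = 0.927). Pdzd8, a protein of contacts between the endoplasmic reticulum and other organelles, had a region 555 nt ahead of its start with 12 and 6 against 8 and 3, a difference of -1.52 ± 0.575 (limma adjusted p = 0.927). Pabpn1, the nuclear protein that binds poly(A) tails and takes part in the choice of poly(A) site, had 42 and 30 against 33 and 35 fragments 184 nt behind its end, inside a curated RefSeq exon of Pabpn1. Its rank score differed by 1.18 ± 0.504 (limma adjusted p = 0.951), on backgrounds (fragments per position expected without enrichment) of 5.50 and 4.40 in shCTR and 3.01 and 2.17 in shMettl14. Those near Gm20544 and Gm28077 had differences of 1.31 ± 0.540 and 1.12 ± 0.516 (limma adjusted p = 0.951 and 0.985). Without shMettl14 A, 3 of 5101 regions were called, of which 1 was intergenic (of 152), the one 5853 nt behind Gprin3, with a difference of -2.88 ± 0.656 (SE, limma adjusted p = 0.0287) that then set 1 list, assumed to vary like the others, against 2.

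Genes of lists fitting VSMCs and the m6A pathway were looked up for intergenic regions nearby. Over all coding genes, 404 of 21911 symbols (1.84%) had an intergenic region within 10 kb of an end, and counts of 0 or 1 in lists of this length are read against that share. None of 17 contractile genes and none of 29 signalling genes had one, and 6 and 23 of them had a summit in an exon. Of 20 matrix genes, 1 had one, the fibrillar collagen gene Col5a2, with 5 fragments in shCTR A only, 9844 nt behind the gene. Of 19 genes of the m6A machinery, 1 had one in all 4 lists. This was Rbm15, a subunit that guides the writer complex to RNA, with 7, 4, 6 and 6 fragments 187 nt behind its end in a predicted RefSeq exon of Rbm15. Of 15 genes of 3′ end processing, 1 had one, Pabpn1. Summits in exons were found for 14 of the 20, 12 of the 19 and 6 of the 15. Over all coding genes 25.3% had a summit in an exon.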

How the data were processed

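Peaks were studied in 4 IP samples, each called against its own input. Per the submitters' processing notes and the study's methods, reads were aligned with STAR to mm10, uniquely mapped reads were kept with SAMtools and peaks were called with MACS2, whose version and options are not given in the sources used here. The deposited fold enrichment is a ratio at the summit, IP pileup plus 1 over local background plus 1, which is close to the pileup itself where the background is low, and the authors' −log10 p-values and q-values score each summit within its list (smallest −log10 q 2.01). Because each list has its own background, ranks within lists were compared. The deposited replicate overlap intervals carry no values.

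Pileup and background were solved from fold enrichment and −log10 p, and a whole-number pileup matched in 100% of summits (tolerance 0.001, largest error 0.000151). A background within 1% of the list's lowest counted as lowest. Summits were placed on GENCODE M21, with RefSeq of GRCm38.p6 as second annotation. Distances count from the strongest summit of a region. Like regions were found with BLAST+ 2.17.0 on windows of 50 nt each side of the summit. The rank fit used limma 3.58.1 (R 4.3.3, lmFit and eBayes, two-sided, Benjamini-Hochberg, threshold 0.05) and, on simulated data of 4929 regions, recovered 79% of 100 shifts of 2 score units and 100% of shifts of 4. Python 3.11.15, pandas 2.3.3, numpy 2.4.6, SciPy 1.17.1, pysam 0.24.0 and matplotlib 3.10.9 were used. Alternatives moved the summit, the peak threshold, list size, the genes counted, merging, distances, windows, motifs and lists.

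The regions and gene lists were chosen with earlier results of these data known. Regions named by rule were the 12 strongest in all 4 lists, up to 6 of each arm alone and of the smallest p in the rank fit, up to 8 genes with at least 3 regions within 10 kb downstream, the 6 farthest from genes and those within 10 kb of a listed gene. Some regions and 1 gene list are not reported here. No sequence of chromosome 18 is printed.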

Additional observations from a re-analysis of the deposited data

How the results depend on the processing

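The numbers of intergenic regions (746 to 957 under other rules, 747 to 878 without 1 list) and of those in all 4 lists (112 to 151) stayed within 1.5 times their values. The difference in intergenic share (-0.114 percentage points) turned to 0.300 with interval midpoints and ranged from -0.401 to 0.173 without 1 list. It was -0.324 with equal numbers of top summits, -0.175 at −log10 q of at least 5 and -0.178 with bodies of coding and long noncoding genes only. The difference in 3′ end share (-0.622) turned to 0.376 at 1 kb, 0.527 at −log10 q of at least 5 and 0.277 with equal numbers of top summits, and ranged from -1.91 to 0.661 without 1 list. It kept its sign and was larger at 10 kb (-1.62), with ends of coding genes only (-1.29) and with interval midpoints (-1.51). Control-only regions numbered 10 at −log10 q of at least 5, where knockdown-only regions numbered 15, and 11 knockdown-only regions were left with equal list sizes. Control-only counts were 95 and 195 without shCTR A or B and 44 and 27 without shMettl14 A or B, and knockdown-only counts 67, 41, 108 and 225 in the same order, since 1 list then stood for an arm. Intergenic regions called in the rank fit were 0 to 1 without 1 list and 0 in the other settings. The sense share of GGACT (87.4%) moved to 78.6% at 10 kb, 66.6% with DRACH and 74.2% with RRACT, and stayed between 79.8% and 92.3% with other windows, 1 kb or like regions reduced or left out (the last chosen after seeing the data), and between 86.1% and 89.0% without 1 list. The cause of these changes was not tested.

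With the letter as a replicate block, the share differences were -0.114 (p = 0.5, exact permutation) and -0.622 (p = 1.0, exact permutation), and the limma fit called 0 regions (11 intergenic at an unadjusted p under 0.05). With 2 lists per arm this blocked permutation cannot go below p = 0.5, so it cannot decide. The intergenic share was lower in shMettl14 for both letters. A minus B correlated between the arms with 0.08 over regions, and whether A and B share a culture, batch or day is not stated. Median pileups of 7 to 8 fragments at intergenic summits limit the precision for single regions.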

Other observations

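Some intergenic regions lay in runs. When regions at most 5 kb apart with no gene between them were joined, 702 of the 950 stood alone, 248 were in runs of 2 or more and 18 runs had 4 or more regions (this grouping was chosen after values were seen). Near Gm28893 on chromosome 1 lay 2 runs of 5 regions. The run at chr1:44369004-44375656 had 22 DRACH matches on the minus strand and 0 on the plus strand, and highest pileups of 15, 27, 25 and 22 fragments (shCTR A and B, then shMettl14 A and B). The run at chr1:44381094-44387756 had 18 on the minus and 5 on the plus strand, with 23, 24, 23 and 24 fragments. The run with the most regions, 7 at chr10:79045133-79054650 near Olfr57 and 2610008E11Rik, had 20 on the minus and 6 on the plus strand, with no pileup over 9. A run of 4 near Emcn on chromosome 3, an endothelial sialomucin, had 18 on the plus and 2 on the minus strand and was found in no region of shCTR A. Other runs were more even, such as 5 regions on chromosome X near Gm6592 and Gm5751 (9 on the plus and 11 on the minus strand) and 5 behind Gm14435 (15 and 8). In every run named here the median window was 100% soft-masked. In the 2 Gm28893 runs, the Olfr57 run and the Emcn run, 3, 3, 3 and 4 regions resembled another intergenic region. How DRACH is divided between the strands of such sequence elsewhere was not tested.

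Chromosome Y was the one chromosome on which most regions were intergenic, with 22 of 28, 8 of them in all 4 lists and 20 soft-masked. Intergenic summits were 71%, 68.4%, 65.7% and 63.0% of its summits by list. The strongest of its regions, 15040 nt from Mid1-ps1, had 45, 31, 46 and 27 fragments, higher in both replicate A lists. On chromosome X, 58 of 287 regions (20.2%) were intergenic.

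The deposited replicate overlap intervals touched 192 of the 950 intergenic regions for shCTR and 211 for shMettl14, of which 144 and 139 were in all 4 lists by the merging used here.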
